A study of Homo sapiens with 42 samples.

Results

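Nuclear RNA of K562 cells treated with JTE-607 for 1 h was compared with nuclear RNA of untreated cells. K562 is an established human line from a chronic myeloid leukemia, which depends on the BCR-ABL1 kinase. The 2 groups were chosen by the columns of the nuclear count table and hold 6 of the 42 libraries of the series: 3 of cells given 5 μM JTE-607 for 1 h (JTE 1h) and 3 of untreated cells (CTRL). The nuclear libraries of cells given 1 μM imatinib, a BCR-ABL1 inhibitor, for 1 h (IM 1h) and of cells given 110 mM KCl, a hyperosmotic stress, for 1 h (KCl 1h) were used for contrast, 3 of each. So were the poly(A) mRNA libraries of the JTE 1h and CTRL groups, also 3 of each. The 3 nuclear libraries of cells given 1 μM imatinib for 18 h are not described here. They did enter the low-count filter, the scaling, the fit and the mean level over all nuclear libraries. All groups are K562 cells, the nuclear groups differ in treatment and the mRNA groups also in RNA fraction and selection, so each result is about 1 cell line, and no vehicle control is named in the labels.

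JTE-607 is a prodrug that cells convert to an acid, which binds the nuclease CPSF73. CPSF73, encoded by CPSF3, is the subunit of the cleavage and polyadenylation complex that cuts a new transcript downstream of its poly(A) signal, most often AAUAAA. RNA polymerase II goes on transcribing past that cut, and termination normally follows once the cut end has been made. When cutting fails, RNA continues past the end of the gene and can cover the next gene on either strand, and this RNA is then counted for that next gene. The same nuclease cuts histone transcripts at a stem-loop, without polyadenylation.

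The 6 libraries held from 19803825 to 25103205 counted read pairs. Levels are given as CPM, the counted pairs of a gene per 1000000 pairs after TMM scaling, and 21929 of 58243 genes passed the low-count filter and were tested. In K562 markers (10 erythroid and leukemia genes) the summed level was 4313 to 6115 CPM in CTRL and 3741 to 6084 CPM in JTE 1h. Markers of B cells, T cells, monocytes and fibroblasts summed to at most 18.2 CPM in any of these libraries and those of epithelial cells to 60.8 to 79.9 CPM, with 1 of 4 genes over 1 CPM in each list. The summed level of mitochondrial genes was 49660 to 62920 CPM in CTRL and 51140 to 65330 CPM in JTE 1h. Libraries of 1 group differed by more than sampling noise, and libraries with the same replicate number deviated together, so the numbers pair the libraries.

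JTE 1h moved many more genes up than down. Of the genes tested, 1868 (8.52%) were called, that is, had an adjusted p under 0.05 by edgeR's quasi-likelihood test and a log2 fold change beyond 0.6. Of these, 1536 (7% of genes tested) were higher and 332 (1.51%) lower. The median log2 fold change of all genes tested was -0.01. With the replicate number as a block in the fit, 2514 genes (11.5%) were called, 1892 (8.63%) higher and 622 (2.84%) lower. The lower count was 143 without CTRL replicate 3, 155 without CTRL replicate 2, 148 without JTE 1h replicate 1 and 202 without JTE 1h replicate 3.

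The genes that rose were mostly genes with little RNA in these cells. Of the 1536, 1499 (97.6%) had a mean of under 10 CPM over the 15 nuclear libraries, compared with 57.6% of all genes tested. Of the same 1536 genes, 438 (28.5%) started within 10 kb past the end of a gene expressed at 10 CPM or more on the same strand, compared with 12.7% of genes tested. Facing genes, whose 3′ end points at the 3′ end of an opposite-strand expressed gene, made up 447 (29.1%) within 10 kb, compared with 12.4%. One or the other applied to 810 (52.7%) of the genes that rose and to 22.8% of genes tested. The libraries keep strand but were counted without a strand option, so a facing gene receives antisense pairs.

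The largest rise among called genes with at least 10 CPM in JTE 1h was in TSPOAP1 (ENSG00000005379, chromosome 17, 58301228 to 58328760), which encodes a scaffold protein of synapses. Its level was 6.03, 6.97 and 12.8 CPM in the 3 CTRL libraries and 152, 116 and 138 CPM in the 3 JTE 1h libraries. The JTE 1h libraries lay far above all CTRL libraries, by a log2 fold change of 3.98 (edgeR adjusted p 3.24e-06, SE 0.31). It overlaps 1 other gene, which is not expressed, and starts 2124 bases past the end of MIR142HG, the host gene of the blood-cell microRNA miR-142. MIR142HG itself fell, from 53.0, 55.9 and 69.4 CPM to 37.2, 36.2 and 42.0 CPM (edgeR adjusted p 0.00632, log2 fold change -0.63, SE 0.14), but it did not pass when CTRL replicate 3 (-0.49), JTE 1h replicate 1 (-0.60) or JTE 1h replicate 2 (-0.59) was left out.

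The next largest rises were in genes that contain the end of an opposite-strand expressed gene. DENND2B, which encodes an exchange factor for Rab GTPases, had 3.26, 3.78 and 4.56 CPM in CTRL and 37.6, 35.1 and 43.4 CPM in JTE 1h (edgeR adjusted p 2.44e-09, log2 fold change 3.33, SE 0.19). Within DENND2B lies the end of RPL27A, a ribosomal protein gene at 905 CPM in CTRL and 928 CPM in JTE 1h, which was not called (log2 fold change 0.04, edgeR adjusted p 0.854). The non-coding MGC16275 had 1.61, 1.37 and 1.88 CPM in CTRL and 13.3, 12.8 and 17.6 CPM in JTE 1h (edgeR adjusted p 4.83e-08, log2 fold change 3.17, SE 0.24). It holds the end of RPL38, another ribosomal protein gene, at 377 and 390 CPM (log2 fold change 0.05, edgeR adjusted p 0.765). In both pairs the gene with little RNA rose, and the ribosomal protein gene whose end lies inside it was not called.

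ARL10, a small GTPase gene, contains the ends of NOP16 and CLTB on the other strand and of HIGD2A on its own, and its level was 1.52, 2.19 and 2.87 CPM in CTRL and 16.6, 12.5 and 22.9 CPM in JTE 1h (edgeR adjusted p 2.13e-06, log2 fold change 2.99, SE 0.28). EPB41L4A, a membrane skeleton gene, contains the end of EPB41L4A-AS1, the long non-coding RNA that hosts a snoRNA, and rose by 2.09 (SE 0.20, edgeR adjusted p 1.06e-06) from 2.41 ± 0.54 to 10.2 ± 0.65 CPM (SD, n = 3). Since these genes overlap others and ambiguous pairs were dropped, their levels are uncertain. Other genes faced an expressed gene across a gap. MPIG6B, an immunoreceptor gene of platelets, rose by 2.83 and lay 324 bases from the end of DDAH2. IL12RB2, a cytokine receptor gene, rose by 2.00 at 10910 bases from SERBP1, and PDZD2 by 2.06 at 13773 bases from GOLPH3. The non-coding ZNNT1 rose by 2.39 and starts 8249 bases past ZNF706. All 10 genes with the largest rises had no overlap between the libraries of the groups, as their rule required, and 28.3% of all genes tested had none.

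**Figure D1:**
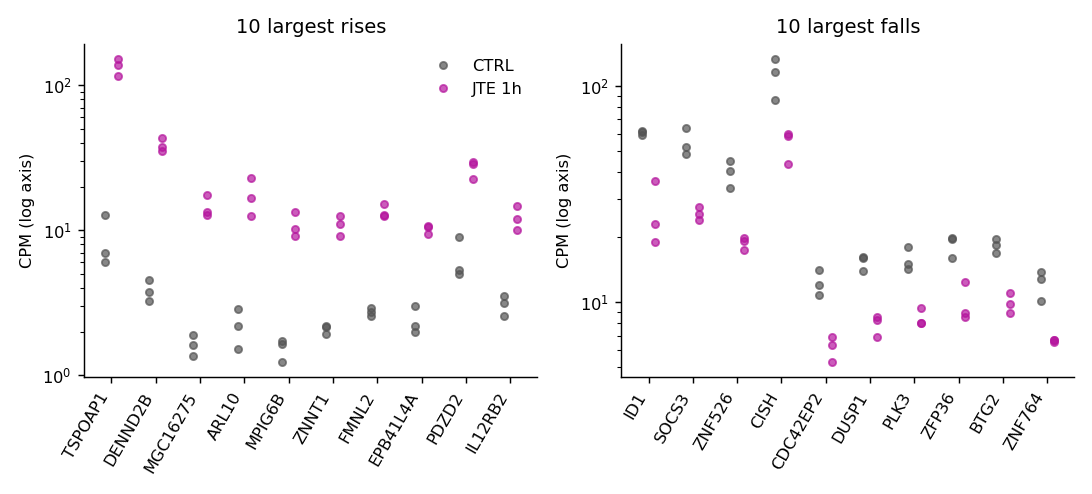
CPM on a log axis in each CTRL library (grey) and each JTE 1h library (magenta) for the 10 genes with the largest rises (left) and the 10 with the largest falls (right) among called genes with at least 10 CPM in the higher group. TSPOAP1 goes from at most 12.8 to at least 116 CPM, and ID1 from at least 59.6 to at most 36.4 CPM.

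To describe neighbors without the low-count filter, which favors genes that are high in some group, all annotated genes with a mean under 10 CPM, at least 1 count and no overlap with another gene were summed by position. The 939 genes that start within 10 kb past an expressed gene of the same strand (tandem genes) summed to 864, 879 and 925 CPM in CTRL and to 1495, 1378 and 1502 CPM in JTE 1h. The lowest JTE 1h library was thus above the highest CTRL library, and the log2 ratio of the means was 0.71. The 805 facing genes went from 687 ± 17.8 to 1013 ± 30.6 CPM (SD, n = 3), a log2 ratio of 0.56. The 500 genes that end within 10 kb before the start of an expressed gene went from 370 ± 4.90 to 369 ± 8.08 CPM. The 756 divergent genes, whose start faces the start of an expressed gene, went from 656 ± 1.08 to 615 ± 18.7 CPM, a log2 ratio of -0.09. For 9517 isolated genes, with no expressed gene within 10 kb, the sums were 3650 ± 92.2 and 3866 ± 135.1 CPM, a log2 ratio of 0.08. The rise was therefore seen in the classes that lie downstream of the ends of expressed genes, on either strand. Relative to the isolated genes of the same library, the tandem sum rose by 0.63 on the log2 scale, and the 3 JTE 1h libraries (-1.42, -1.49 and -1.31) lay above the 3 CTRL libraries (-2.12, -2.05 and -1.94). In bulk RNA, a change in more cells and a larger change per cell cannot be told apart.

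**Figure D2:**
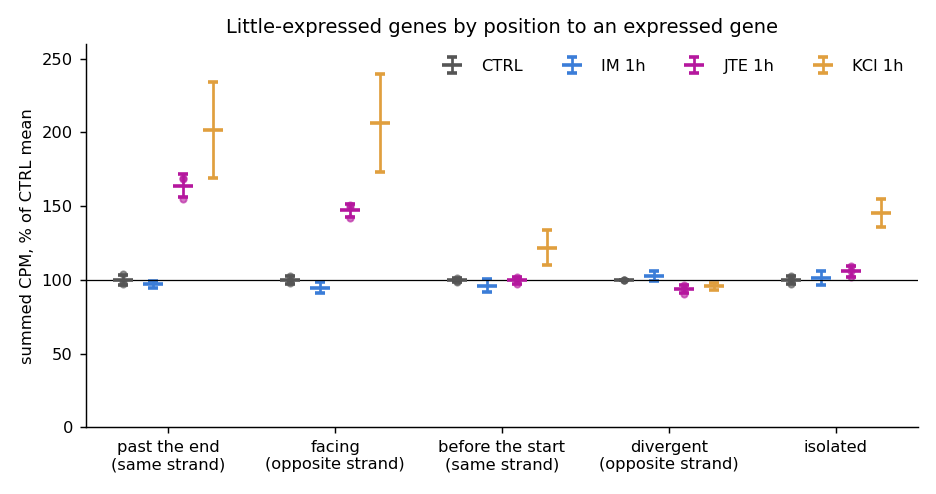
Summed CPM of little-expressed genes as a percentage of the CTRL mean, by position relative to an expressed gene within 10 kb, with mean and SD of 3 libraries per group and single CTRL and JTE 1h libraries as points. Genes past the end of an expressed gene and facing genes stand above CTRL in JTE 1h and in KCl 1h, isolated genes and genes before a start are also above CTRL in KCl 1h, and IM 1h stays near 100.

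Of the 939 tandem genes, 610 passed the filter, and 263 of these (43.1%) were called higher and 3 lower, and of the 504 facing genes tested 189 (37.5%) were higher and 2 lower, beside 7% and 1.51% of all genes tested. Of 172 tested genes before a start 16 (9.30%) were higher and 1 lower, of 315 divergent genes 7 (2.22%) and 6, and of 2086 isolated genes 214 (10.3%) and 19. The shares before a start and among isolated genes were thus near or somewhat above that of all genes. Among tandem genes at 0.5 CPM or more in every CTRL library, which did not need a treated group to pass the filter, 98 of 274 (35.8%) were called higher, compared with 593 of 16647 (3.56%) of all genes at that level. The tandem sum rose more next to highly expressed genes. Its log2 ratio was 0.44 past genes of 10 to 20 CPM, 0.47 past 20 to 50 CPM, 0.70 past 50 to 100 CPM and 1.01 past genes over 100 CPM.

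The tandem genes described here are among the 6 with the largest called rises and at least 1 CPM in JTE 1h. AOC3, an amine oxidase of vessels and fat, starts 7426 bases past PSME3, a proteasome activator gene, and had 0.98, 0.50 and 0.54 CPM in CTRL and 8.74, 4.60 and 9.20 CPM in JTE 1h (edgeR adjusted p 2.18e-05, log2 fold change 3.46, SE 0.40). AOC3 thus had under 1 CPM in every untreated library and at least 4.60 CPM in every treated one.

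ARL9 rose by 3.68 at 1529 bases past SRP72, IQCN by 3.84 at 5251 bases past JUND and SPOCK2 by 3.44 at 7000 bases past ASCC1. None of these upstream genes was called, with log2 fold changes from -0.24 for JUND to 0.26 for SRP72. Neighbors that did not rise existed as well. TMC4, a channel-like gene 162 bases past MBOAT7, had 4.16, 5.06 and 5.00 CPM in CTRL and 3.59, 3.34 and 3.47 CPM in JTE 1h (edgeR adjusted p 0.159, log2 fold change -0.45, SE 0.19), and MIR3143, 111 bases past the annotated end of the histone gene H2AC12, had a log2 fold change of -0.14 (edgeR adjusted p 0.892, SE 0.45).

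The last 30 bases of 5 of these upstream genes are shown because the cut that JTE-607 is directed at falls at such an end; capitals mark AATAAA, the DNA form of the main poly(A) signal. They were read from hg38 on the strand of the gene, at chr17:58330884-58330913 (minus strand) for MIR142HG, chr4:56503651-56503680 (plus) for SRP72, chr17:42843729-42843758 (plus) for PSME3, chr19:18279760-18279789 (minus) for JUND and chr19:54173412-54173441 (minus) for MBOAT7, and each is exonic and ends at the annotated gene end.
MIR142HG: ccaatgctAATAAAgactggactgtgcttc
SRP72: taaAATAAAatattttagcagtgaatatgg
PSME3: gaAATAAAgtttcctcatcttccaccttgc
JUND: ttctgttttcagtaaagtctcgttacgcca
MBOAT7: tctttcccAATAAAgtgttgcacaaaggca
The MBOAT7 end holds the hexamer although TMC4 did not rise, and the JUND end lacks it although IQCN did. On the strand of the gene, AATAAA was found in the last 50 bases of 58.5% of 253 genes upstream of tandem genes that rose, of 53.5% of 213 genes upstream of tandem genes that were not called and had a log2 fold change of at most 0.6, and of 60.7% of 9288 expressed genes. ATTAAA without AATAAA was found in 17.4%, 13.6% and 13.9%. The share with AATAAA thus ran from 53.5% to 60.7%, and absence says only that these letters are not in this window.

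Some of the genes that rose were nearly silent in CTRL. Of the 1536, 316 had at most 3 counts in every CTRL library. Genes with so few CTRL counts passed the filter only through other groups, and their share among all genes tested was not counted. The pseudogene YAP1P1, 16410 bases past the end of STXBP5, had 1, 1 and 2 counts in CTRL and 132, 69 and 112 counts in JTE 1h, a ratio of 72.4 after scaling for depth (exact 95% interval 28.0 to 268, which covers counting error only). CALHM1, a calcium channel gene of taste cells and neurons that faces PDCD11 at 7095 bases, had 1, 1 and 3 counts in CTRL and 76, 50 and 113 in JTE 1h (ratio 44.2, interval 18.7 to 138). GARIN1A had 1, 3 and 1 counts in CTRL and 76, 34 and 103 in JTE 1h (ratio 39.4, interval 16.6 to 123). These 3 genes were picked for low CTRL counts, a called rise and the highest JTE 1h means. The separation of their libraries and the size of their ratios therefore follow from that choice.

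With KCl the sums past gene ends were also above CTRL, but the profile over distance differed. Isolated, before-start and divergent genes have no end of an expressed gene upstream or facing within 10 kb. KCl 1h stood above CTRL in the isolated genes (log2 ratio 0.54, 5306 ± 353.5 CPM) and in genes before a start (0.29), where JTE 1h had 0.08 and -0.0042. In divergent genes KCl 1h had -0.07 and JTE 1h -0.09. These classes can hold genes 10 to 50 kb from such an end. With no such end within 50 kb, genes over 100 kb before a start had a KCl 1h log2 ratio of 0.12. Nearer steps ran from -0.56 under 1 kb to 0.28 at 5 to 10 kb. By distance past the end of an expressed gene, the log2 ratio of summed CPM in JTE 1h to CTRL was 0.74 under 1 kb, 0.81 at 1 to 5 kb, 0.55 at 5 to 10 kb, 0.43 at 10 to 20 kb, 0.10 at 20 to 50 kb, 0.03 at 50 to 100 kb and 0.12 beyond. With KCl 1h it was 0.67, 1.02, 1.13, 1.25, 0.81, 0.40 and 0.41 over the same steps, so it was highest farther from the end. In IM 1h every step lay between -0.11 and 0.03. These 3 profiles share the CTRL libraries, and over all genes KCl 1h had 5227 genes called against CTRL (23.8%, with 15.3% higher and 8.5% lower) and IM 1h had 10 (0.0456%, with 0.00456% higher and 0.041% lower). JTE 1h was then tested directly against KCl 1h. Among genes tested, 9 of 78 under 1 kb were higher with JTE-607 and 9 lower than with KCl. At 1 to 5 kb 34 of 310 were higher and 86 lower, at 5 to 10 kb 16 of 222 and 91, at 10 to 20 kb 13 of 285 and 136 (47.7%), and at 20 to 50 kb 8 of 478 and 208 (43.5%). Over all genes tested, 3489 (15.9%) differed, and 1149 (5.24%) were higher with JTE-607 and 2340 (10.7%) lower. The median log2 difference between JTE-607 and KCl went from 0.01 under 1 kb to -0.84 at 10 to 20 kb. Genes passed the filter in part through KCl libraries where they were high, which the filter-free sums above do not share.

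**Figure D3:**
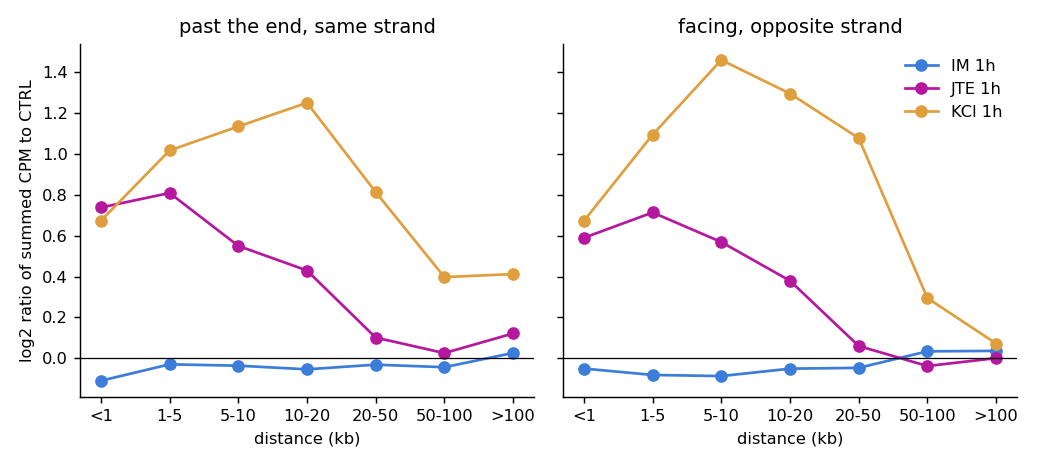
Log2 ratio of the summed CPM of little-expressed genes to CTRL, by distance past the end of an expressed gene on the same strand (left) and by distance to a facing end on the other strand (right), for IM 1h (blue), JTE 1h (magenta) and KCl 1h (orange). The left panel keeps genes that also face an end, and the right panel leaves out genes with an upstream end within 50 kb. JTE 1h is highest at 1 to 5 kb (0.81 and 0.71), and KCl 1h at 10 to 20 kb on the left (1.25) and 5 to 10 kb on the right (1.46), where isolated genes stood at 0.54 in KCl 1h and 0.08 in JTE 1h.

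Facing genes with no upstream end of an expressed gene within 50 kb gave a like profile. In JTE 1h the log2 ratio was 0.59 under 1 kb, 0.71 at 1 to 5 kb, 0.57 at 5 to 10 kb, 0.38 at 10 to 20 kb and 0.06 at 20 to 50 kb. With KCl 1h it was 0.67, 1.09, 1.46, 1.29 and 1.08. At 50 to 100 kb and over 100 kb the KCl 1h ratio was 0.295 and 0.07, where JTE 1h had -0.04 and 0.0012. At 20 to 50 kb, 5 of 261 tested facing genes were higher with JTE-607 than with KCl and 135 (51.7%) were lower.

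Single genes went either way between the treatments. MGC16275, at the end of RPL38, was at 1.79 ± 0.55 CPM with KCl against 14.6 ± 2.62 CPM with JTE-607 (direct log2 difference 3.02, SE 0.24, edgeR adjusted p 2.16e-08), and TSPOAP1 at 54.5 ± 16.7 against 135.2 ± 17.7 CPM (1.31, edgeR adjusted p 0.00317). IQCN, past JUND, was much lower with JTE-607 than with KCl (-3.17, edgeR adjusted p 2.16e-08), as was ARL9 (-1.38, edgeR adjusted p 0.0048). For DENND2B the difference did not pass the threshold (0.39, edgeR adjusted p 0.116), which does not show equal levels. Against IM 1h, 1755 genes (8%) were called, 1627 (7.42%) higher and 128 (0.584%) lower with JTE-607. Of the 1536 genes that rose against CTRL, 1322 (86.1%) were also called higher than in IM 1h, whereas of the 332 that fell 71 (21.4%) were also called lower. The comparisons share the JTE 1h libraries and 1 fit, in which the IM 1h libraries entered the filter, scaling and dispersion.

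Most genes that fell also had little RNA. Of the 332, 272 (81.9%) had a mean under 10 CPM, compared with 57.6% of genes tested. One or 2 exon blocks were held by 193 (58.1%), compared with 28.8% of genes tested and 35.7% of genes that rose. An exon block is a merged run of the exons of all transcripts of a gene. A span under 5 kb was held by 207 (62.4%), compared with 30.8% of genes tested and 38.15% of genes that rose. For lncRNA genes the number was 127 (38.3%), compared with 19.1% and 22.1%. Since 282 of the 332 (84.9%, compared with 69.9%) overlap another gene, many of their counts may hold pairs of a partner on the other strand. Among 9308 expressed genes, 60 (0.645%) were lower and 37 (0.398%) higher. The cut of 10 CPM is on the mean over all 15 nuclear libraries, so a gene can pass through treated groups where it is high. TSPOAP1 (8.59 CPM in CTRL), DENND2B (3.87) and PDZD2 (6.45) passed in this way and are among the 37. The share that was lower went from 3.70% of 324 genes with 1 exon block, 3.62% of 276 with 2 and 2.52% of 317 with 3 to 0.359% of 2508 with 6 to 10 and 0 of 1828 with over 20. By span it went from 3.72% under 2 kb to 0.0614% at 30 to 100 kb.

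**Figure D4:**
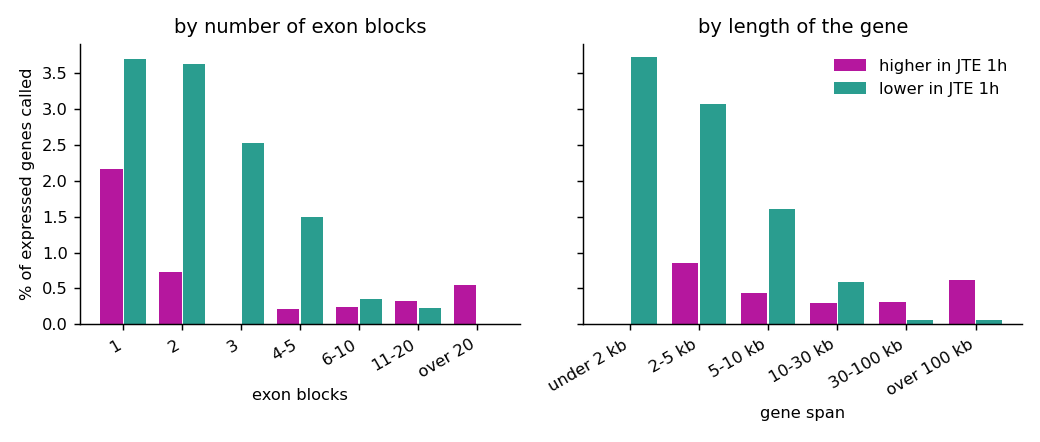
Percentage of the 9308 expressed genes (mean of 10 CPM or more) called higher (magenta) or lower (green) in JTE 1h, by the number of exon blocks (left) and by the span of the gene (right). The share called lower is highest in genes with 1 or 2 blocks (3.70% and 3.62%) and in genes under 2 kb (3.72%).

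The 4 largest falls among called genes with at least 10 CPM in CTRL were in ID1, SOCS3, ZNF526 and CISH. ID1, an inhibitor of basic helix-loop-helix factors that BMP signals induce, had 61.6, 61.1 and 59.6 CPM in CTRL and 23.0, 36.4 and 18.9 CPM in JTE 1h (edgeR adjusted p 0.00379, log2 fold change -1.22, SE 0.24). SOCS3, a STAT-induced brake on cytokine receptors, had 48.5, 52.3 and 64.2 CPM in CTRL and 25.4, 24.0 and 27.6 CPM in JTE 1h (edgeR adjusted p 0.000554, log2 fold change -1.10, SE 0.18). ZNF526, a zinc finger gene, fell from 39.6 ± 5.67 to 18.8 ± 1.20 CPM and had the smallest adjusted p of the 10 largest falls (-1.08, SE 0.13, edgeR adjusted p 1.27e-05). CISH, a STAT5 target of the SOCS family, went from 86.5, 115.6 and 133 to 43.3, 59.0 and 59.8 CPM (-1.05, SE 0.18, edgeR adjusted p 0.000777). In all 4 genes the highest JTE 1h library was below the lowest CTRL library, as the rule for choosing them required.

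The others were CDC42EP2, a binding partner of CDC42 (-0.99), the stress kinase gene PLK3 (-0.90) and the zinc finger gene ZNF764 (-0.88), with the immediate early genes DUSP1, ZFP36 and BTG2. DUSP1, a phosphatase of MAP kinases, went from 13.9, 16.03 and 16.2 to 6.93, 8.27 and 8.55 CPM (-0.96, SE 0.13, edgeR adjusted p 4.42e-05). ZFP36, which drives decay of AU-rich mRNAs, went from 18.4 ± 2.10 to 9.93 ± 2.13 CPM (-0.90), and BTG2, an antiproliferative gene, from 18.3 ± 1.36 to 9.90 ± 1.08 CPM (-0.88). Of these 10 genes, PLK3 alone had more than 4 exon blocks (11).

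Some lists of signaling and short-lived transcripts held more called falls than rises, and are given beside the 1.51% of all genes tested that were called lower and the 7% called higher. Of 24 immediate early genes, which answer growth signals within minutes, 23 were tested; 6 fell (26.1%), 0 rose, 20 were below 0 and the median log2 fold change was -0.33, beside -0.01 for all genes tested. Outside the named 3, the genes that fell were FOS, JUNB and IER3, chosen, like EGR1 and DUSP5, after their values were seen; FOS went from 3.07 ± 1.30 to 1.21 ± 0.60 CPM (-1.37, edgeR adjusted p 0.0411). EGR1 varied widely, at 122.6 ± 46.7 and 80.4 ± 65.4 CPM, and was not called. In KCl 1h the median of the same list was 0.59 and in IM 1h -0.28. Of 22 STAT5 and ERK targets, 19 were tested; 4 fell (SOCS1, SOCS3, CISH and DUSP5, 21.05%), with 6 lower under the replicate block, and 1 rose, PHLDA1 (1.51, SE 0.32, edgeR adjusted p 0.00407), which starts 2655 bases past NAP1L1. SOCS1 went from 3.00 ± 0.61 to 0.963 ± 0.16 CPM (-1.63, SE 0.23, edgeR adjusted p 8.64e-05). Of 9 tested ID and SMAD feedback genes, ID1 and CITED2 fell (22.2%), and the median was -0.42. The median of the STAT5 and ERK targets was -0.14, a value that expressed genes with a span under 10 kb also had (-0.11 under 2 kb, -0.13 at 2 to 5 kb and -0.14 at 5 to 10 kb). No enrichment of these lists was tested.

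Beside imatinib, which inhibits the kinase upstream of STAT5, some of these genes differed in level. SOCS3 stood at -3.27 and CISH at -2.15 in IM 1h against CTRL, and both were higher with JTE-607 than with imatinib (2.17, edgeR adjusted p 1.68e-06, and 1.11, edgeR adjusted p 0.000538). DUSP1 and BTG2 were lower with JTE-607 than with imatinib (-1.05, edgeR adjusted p 1.48e-05, and -0.98, edgeR adjusted p 0.000564). For ID1 and ZFP36 the difference did not pass the threshold (0.75, edgeR adjusted p 0.0816, and 0.12, edgeR adjusted p 0.775). Against KCl 1h, DUSP1 and ZFP36 were both lower by 1.52 on the log2 scale (edgeR adjusted p 5.00e-08 and 1.38e-07). CITED2, a coactivator-binding gene, had 53.9, 56.6 and 59.2 CPM in CTRL and 28.5, 42.5 and 34.4 CPM in JTE 1h (-0.69, SE 0.12, edgeR adjusted p 0.00088), and its call was lost without JTE 1h replicate 1 (-0.55).

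**Figure D5:**
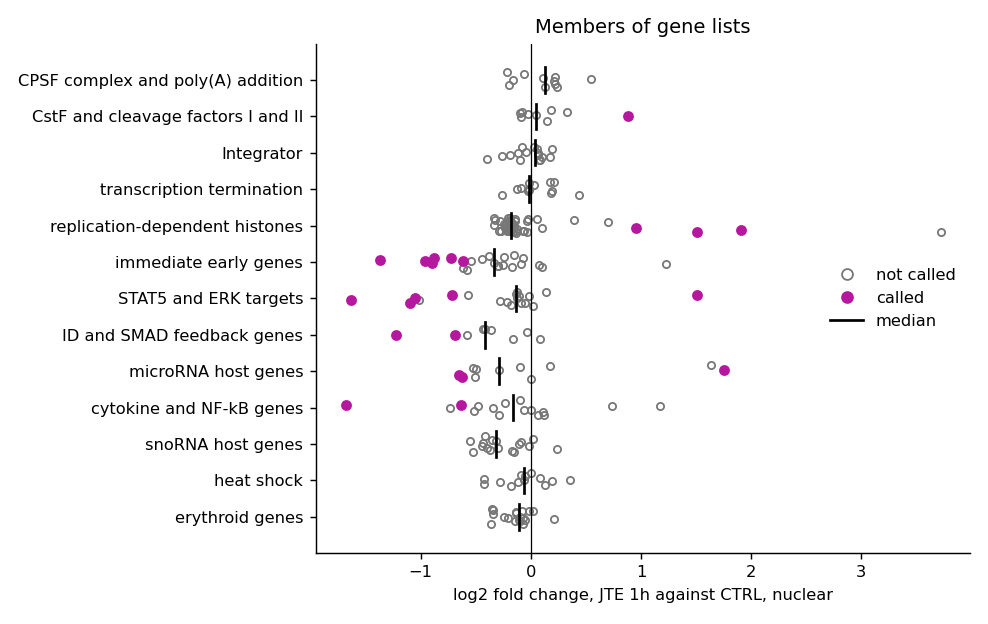
Log2 fold change of JTE 1h against CTRL for each tested member of 13 gene lists; filled points were called, open points were not, and black bars are medians. The immediate early list has 6 called members below 0, the CPSF list has none called, and PCF11 is the called member of the CstF and cleavage factor list.

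The machinery that JTE-607 is directed at was little altered in RNA level. CPSF3, the gene of the target, had 142.6, 117.5 and 104.1 CPM in CTRL and 150.6, 136.5 and 137.8 CPM in JTE 1h (edgeR adjusted p 0.472, log2 fold change 0.22, SE 0.16). A drug acts on the protein, so this RNA level does not check the labels. Of the 11 genes for the CPSF complex and poly(A) addition 0 were called, with log2 fold changes from -0.22 (CPSF4) to 0.55 (RBBP6, edgeR adjusted p 0.291). At an unadjusted p under 0.05, 1 of these 11 genes stood, beside 4776 of all 21929 genes tested, and DESeq2 called 0 of the 11. With the replicate block, the edgeR adjusted p was 7.26e-07 for RBBP6 and 0.0218 for CPSF3 (log2 fold change 0.24). CPSF2, PAPOLA and FIP1L1 were also higher at 0.0179 to 0.0408, and CPSF4 and SYMPK lower at 0.0267 and 0.0428. All of these fell short of the fold threshold. CPSF1, PABPN1, PAPOLG and WDR33 did not pass the adjusted p with the block.

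PCF11 was the exception among the 9 genes for CstF and cleavage factors I and II. It encodes a termination factor that bridges the polymerase and the cleavage complex, and its gene is known for an early intronic poly(A) site through which it limits its own expression. PCF11 had 127.4, 110.5 and 102.1 CPM in CTRL and 225.8, 194.4 and 207.1 CPM in JTE 1h, without overlap (edgeR adjusted p 3.94e-05, log2 fold change 0.88, SE 0.12). It was also higher than in IM 1h (0.68, edgeR adjusted p 0.000448) and in KCl 1h (0.82, edgeR adjusted p 2.25e-05), and in mRNA by 0.90 (edgeR adjusted p 7.23e-05). ANKRD42-DT, which lies on the other strand, ends inside PCF11 and was looked up after the values were seen, fell from 15.9 to 9.24 CPM (-0.78, edgeR adjusted p 0.000855). Lists for transcription termination (13 genes), Integrator (16), P-TEFb and elongation (24) and histone 3′ processing (7) had 0 called by edgeR or DESeq2, with medians from -0.06 to 0.04 and 1, 2, 4 and 0 genes at an unadjusted p under 0.05. At an edgeR adjusted p under 0.05 the numbers were 0, 0, 3 and 0, and the 3 fell short of the fold threshold.

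Of 66 replication-dependent histone genes, 50 were tested. Of these, 3 rose (6.0%, beside 7% of all genes tested), 0 fell, and 42 were below 0, with a median of -0.18. The list median was -0.17 in KCl 1h and -0.02 in IM 1h. In JTE 1h, expressed genes with a span under 2 kb had a median of -0.11 and those of 2 to 5 kb -0.13. H3C6 had 1.34, 1.05 and 1.29 CPM in CTRL and 4.12, 5.32 and 4.40 CPM in JTE 1h (1.91, SE 0.20, edgeR adjusted p 3.37e-06). H2BC6, which starts 710 bases past H2BC5, went from 5.65 ± 1.11 to 10.9 ± 0.82 CPM (0.95, edgeR adjusted p 0.000249), and H2BC14 from 0.248 ± 0.025 to 0.712 ± 0.12 CPM (1.51, edgeR adjusted p 0.0079). H2BC14 lost its call with DESeq2 and without JTE 1h replicate 3. H3C6 starts 6716 bases past H2AC8 and H2BC14 3744 bases past H3C10. Histone genes lie in clusters, and near-identical histone copies share reads that unique mapping drops.

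Among microRNA hosts, MIR17HG, the host of the miR-17 to miR-92 cluster, went from 129.2, 127.8 and 150.1 to 75.5, 96.4 and 87.7 CPM (-0.65, SE 0.12, edgeR adjusted p 0.00091) but did not pass when CTRL replicate 3 (-0.56) or JTE 1h replicate 1 (-0.55) was left out. MIR155HG rose from 0.278 ± 0.033 to 0.945 ± 0.38 CPM (1.75, edgeR adjusted p 0.0132), which did not pass when CTRL replicate 2 or JTE 1h replicate 1 was left out. Of 16 tested cytokine and NF-kB genes NFKBIA, the feedback inhibitor of NF-kB, fell from 19.8 to 12.7 CPM (-0.64, edgeR adjusted p 0.00155), as did IL6 at under 1 CPM, whose call was lost with DESeq2 and when any 1 of 5 libraries, all but CTRL replicate 1, was left out. NFKBIA was at -0.60 without CTRL replicate 2 and -0.59 without JTE 1h replicate 1, short of the threshold. The snoRNA host genes had 0 of 17 called by edgeR or DESeq2 (6 at an unadjusted p under 0.05) but 15 below 0, with a median of -0.31. At an edgeR adjusted p under 0.05 stood 4 of the 17, short of the fold threshold, beside 2163 of all 21929 genes tested. Of 132 snoRNA genes tested, 3 fell (2.27%, beside 1.51% of all genes tested) and 0 rose, with a median of -0.30. With the replicate block 11 of the 132 fell, where 2.84% of all genes were called lower. The median of the snoRNA genes was -0.28 in KCl 1h and -0.10 in IM 1h.

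Housekeeping and lineage lists had no called member. Neither edgeR nor DESeq2 called any of 83 ribosomal protein genes (median 0.01, 3 at an unadjusted p under 0.05), 13 heat shock genes (-0.07, 1), 19 erythroid genes (-0.11, 2, with 17 below 0), 20 DNA repair genes (0.17, 1, with 17 above 0), 19 SR protein and kinase genes (-0.09, 2), 10 nuclear long non-coding RNAs (-0.07, 4) or 12 genes of named chimeric transcripts (-0.13, 3). At an edgeR adjusted p under 0.05, short of the fold threshold, stood 1 ribosomal protein gene, 1 heat shock gene, 1 erythroid gene and 2 genes of chimeric transcripts. The other lists of this group had 0. HBG2 and HBE1, globin genes of the fetal and embryonic type, had log2 fold changes of -0.11 and -0.08. Of 15 stress genes tested PLK3 alone was called. Of 221 chromosome 19 zinc finger genes 3 rose and 4 fell, of 313 divergent transcripts 9 rose and 5 fell, and of 816 antisense transcripts 34 (4.17%) rose and 19 (2.33%) fell, beside 7% and 1.51% of all genes tested.

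Poly(A) mRNA libraries, with untreated libraries of their own, gave a separate reading. Of the 1536 genes that rose in nuclear RNA, 946 were tested in mRNA, and 784 (82.9%) were above 0 there, beside 51.0% of all genes tested in both. Of these 946, 67 were called higher and 0 lower, out of 154 genes called in mRNA (0.851%), 70 (0.387%) higher and 84 (0.464%) lower. Of the 332 that fell, 223 were tested in mRNA, 202 (90.6%) were below 0, 17 were called lower and 0 higher. The median mRNA log2 fold change was 0.64 for genes that rose in nuclear RNA, where it was 1.5, and -0.63 for those that fell. TSPOAP1 rose in mRNA by 3.81, MGC16275 by 4.75 (edgeR adjusted p 2.41e-05) and DENND2B by 2.84 (edgeR adjusted p 7.23e-05), while MIR17HG changed by -2.28 and ZNF526 by -1.27. A test of the difference between fractions in 1 fit of 12 libraries called 12 of 19831 genes (0.0605%), 11 (0.0555%) with the higher response in nuclear RNA and 1 (0.00504%) with the lower. One was NFE2L3, a transcription factor gene, chosen after its values were seen: 32.2 to 62.4 CPM in nuclear RNA and 27.6 to 23.9 CPM in mRNA (difference 1.19, SE 0.16, edgeR adjusted p 0.0142). The count of 12 was between 1 and 10 when single libraries were left out and 27 with DESeq2.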

How the data were processed

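K562 cells were treated in triplicate; nuclear RNA was depleted of rRNA and mRNA was poly(A)-selected. The deposited counts are whole numbers of read pairs; to make them the authors trimmed and deduplicated reads with fastp, aligned them with STAR to hg38 (GRCh38.p14 in the submitters' processing notes), kept unique alignments and ran featureCounts over exons without a strand option. The annotation release is not given in the sources used here; 57532 of 58243 gene IDs are in GENCODE 44, which gave symbols and positions. Duplicate removal without molecular identifiers can lower abundant transcripts, and an intron limit drops pairs over long introns.

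The test across genes was edgeR's quasi-likelihood test (version 4.0.16, R 4.3.3, TMM, filterByExpr, all 15 nuclear libraries, 1 term per group). The 15 are those of CTRL, JTE 1h, IM 1h, KCl 1h and imatinib for 18 h. Calls needed a Benjamini-Hochberg adjusted p below 0.05 and an absolute log2 fold change above 0.6. The fits were tested on simulated data with 1 dispersion for all genes and no replicate effect, unlike these libraries. For JTE 1h against CTRL, 50 of 50 genes raised and 49 of 50 lowered by a log2 change of 1 were called. At 0.8 the numbers were 45 and 40. The test between fractions called 30 of 50 in each direction at 1, and 23 and 20 at 0.8, so it misses many differences of this size. Pairing comes from the replicate numbers in the titles: deviations from the group means correlated by 0.765, 0.392 and 0.688 between same-numbered CTRL and JTE 1h libraries. The alternatives were DESeq2 1.42.0, other scaling factors, no filter, no fold threshold, 2 groups only, the replicate block, removal of genes over 1% of counts, and each library left out. Replicates are called biological in the study's methods.

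Genes named were the 10 largest rises and 10 largest falls among called genes with a symbol, a level of 10 CPM where higher, and groups that did not overlap; up to 3 called members per list and direction by adjusted p, or the 2 most abundant where none was called; all CPSF genes; 6 tandem genes with the largest rises and 2 non-rising neighbors within 1 kb; and 3 genes with at most 3 counts in every CTRL library. The members and lists were chosen with earlier results of these data known. A few of the genes chosen by this rule are not reported here.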

Additional observations from a re-analysis of the deposited data

Results flagged for a closer look

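CITED2 and ZFP36 passed the test against CTRL in opposite directions with JTE-607 and with another treatment, and the difference also passed in a direct edgeR test. For CITED2 the log2 difference from IM 1h was -1.45 (edgeR adjusted p 3.32e-07), from -0.69 with JTE-607 and 0.77 with imatinib (edgeR adjusted p 0.014). For ZFP36 the log2 difference from KCl 1h was -1.52 (edgeR adjusted p 1.38e-07), from -0.90 and 0.63 (edgeR adjusted p 0.00107). In H2BC14, ARL10, AOC3 and CALHM1 the sign differed between JTE-607 and imatinib, but the imatinib value itself did not pass, so no response to imatinib was detected. The imatinib value was -1.30 for H2BC14 (edgeR adjusted p 0.879), -0.65 for ARL10 (0.879), -0.79 for AOC3 (0.879) and -0.62 for CALHM1 (0.961), and the log2 difference between the treatments was 2.81, 3.64, 4.25 and 5.96.

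Over all genes, the direct tests of a difference in response called 1755 genes between JTE 1h and IM 1h, 3489 between JTE 1h and KCl 1h, and 12 between the nuclear and the mRNA response to JTE-607. Groups of 3 libraries were too small for the test of single outlying libraries.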

How the results depend on the processing

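The counts of genes called in all and called higher stayed within 1.5 times under every alternative (1266 to 2514 and 1111 to 1892). The count of lower genes, 332, was 196 with DESeq2, 585 with adjusted p alone, 622 with the replicate block and 143 to 340 with a library left out; higher genes made up 82.2% of the calls with TMM and 83.4%, 85.9% and 83.8% with RLE, upper quartile and library size scaling, and 73.0%, 75.3% and up to 90.5% with adjusted p alone, the block and a library left out. With a library left out, the number called higher and lower was 1111 to 1414 and 143 to 340, the number called 1266 to 1649, against IM 1h 1334 to 1638 and against KCl 1h 3159 to 3560. Against KCl 1h, 5517 genes were called without the filter (3489 with it). The 12 genes that differed between fractions were 27 with DESeq2, 62 without the filter, 19 with the replicate block and 1 to 10 with a library left out. The tandem sum relative to isolated genes, 0.63, was 0.14 at 10 to 50 kb, 0.81 past genes of 50 CPM or more, 0.39 as a mean of log2(CPM + 0.5), 0.72 relative to genes before a start, 0.63 in the replicate block (the mean of the within-number differences) and 0.58 to 0.68 with a library left out.

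Over 83 named genes, 1226 of 1244 alternatives kept the call or its absence, 18 lost a call and 0 reversed the direction of a called gene. A change of sign in a gene that was not called was not counted. The 7 genes that lost a call include IL6, which lost it in 6 of 15 settings. The replicate block changed the call of no named gene. The cause of these shifts was not tested. Depth limits genes of few counts.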
